A study of Mus musculus with 36 samples.

Results

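Chemokine and chemokine receptor genes were described across RNA sequencing libraries of mouse heart. The members were all gene models whose symbol was Ccl, Cxcl, Cx3cl, Ccr, Cxcr or Cx3cr followed by a number, without names in -ps or -as and without Ccrn4l. Where a symbol had more than 1 row, the row with the highest mean was kept. This gave 56 of the 32750 symbols in the table, 37 of them ligands and 19 of them receptors. Of these, 31 had an FPKM of at least 1 in 2 or more of the 36 libraries, and 30 of them, 24 ligands and 6 receptors, are the members described here. FPKM is a fragment count scaled to transcript length and to the mapped fragments of the library, so levels of different genes can be set side by side.

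Chemokines are small secreted proteins that bind G-protein-coupled receptors and guide migrating cells along a gradient. Ligands of the CXC family that act on Cxcr2, such as Cxcl1, Cxcl2, Cxcl3 and Cxcl5, are best known for recruiting neutrophils, and CC ligands such as Ccl2 and Ccl7 for recruiting monocytes through Ccr2. Cxcl12 with its receptors Cxcr4 and Cxcr7 is a homeostatic system that patterns the coronary vessels, and Cxcr7, now named Ackr3, is an atypical receptor that scavenges Cxcl12 without signalling through G proteins.

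The series set the expression of postnatal myocardium beside that of hearts recovering from surgical resection. All libraries came from CD-1 mice, and the labels named no genetic modification. Adult cardiomyocytes were dissociated and explanted for 0 h, 24 h, 48 h or 72 h, with 2 libraries at each time. Cardiomyocytes isolated with Miltenyi columns came from hearts 7 days after resection, hearts 7 days after sham surgery, and unoperated hearts at postnatal day 0 (P0) and 4 (P4), with 3 libraries in each group. Whole ventricular myocardium came from hearts 7 days after resection, 7 days after sham, 1 day after resection, 1 day after sham, and from unoperated mice at P0, P4, P7 and adulthood, with 2 libraries in each group. The age of the adults and the age at surgery were not given in the labels. The cell type label was cardiomyocytes for every sample, whole ventricle included. Whether the libraries of a group stem from different animals was not stated, so every p-value refers to variation among libraries, which may be technical.

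Promoter sequences are shown first for Cxcl1, Cxcl2, Cxcl3 and Cxcl10, which held a κB-like motif, a pattern of the kind that NF-κB binds. The promoter of Ccl9, which held it too, is not printed. Of the 30 members, 22 had a promoter in the RefSeq table (build GRCm38.p6), covering 250 bases before to 50 after the start. The motif GGG, any 3 bases, TTCC, which reads GGAA, any 3 bases, CCC on the other strand, was found in Cxcl1, Cxcl2, Cxcl3, Cxcl10 and Ccl9, which is 5 of 22, while 5.56% of the 32851 promoters of that length held it. The 200 bases before the start are printed 5′ to 3′ for Cxcl1 (chr5:90891045-90891244, plus strand), Cxcl2 (chr5:90903699-90903898, plus strand), Cxcl3 (chr5:90785901-90786100, plus strand) and Cxcl10 (chr5:92348890-92349089, minus strand). Capitals mark every base in a match on either strand, and overlapping matches are joined.
Cxcl1: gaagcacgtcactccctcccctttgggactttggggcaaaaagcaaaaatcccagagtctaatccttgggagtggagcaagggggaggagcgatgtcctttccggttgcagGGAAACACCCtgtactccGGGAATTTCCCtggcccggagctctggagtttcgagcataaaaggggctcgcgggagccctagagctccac
Cxcl2: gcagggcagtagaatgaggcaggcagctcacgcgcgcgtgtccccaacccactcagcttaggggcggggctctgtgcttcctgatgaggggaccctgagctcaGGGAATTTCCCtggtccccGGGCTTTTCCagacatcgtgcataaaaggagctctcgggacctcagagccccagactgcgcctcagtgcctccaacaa
Cxcl3: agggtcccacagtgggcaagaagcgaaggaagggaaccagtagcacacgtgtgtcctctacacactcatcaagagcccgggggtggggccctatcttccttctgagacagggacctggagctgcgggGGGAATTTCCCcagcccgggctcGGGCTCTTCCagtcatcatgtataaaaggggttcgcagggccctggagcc
Cxcl10: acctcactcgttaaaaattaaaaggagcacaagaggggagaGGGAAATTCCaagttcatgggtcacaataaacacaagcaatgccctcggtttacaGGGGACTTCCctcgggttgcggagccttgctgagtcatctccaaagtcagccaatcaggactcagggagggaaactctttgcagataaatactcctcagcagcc
Cxcl1, Cxcl2 and Cxcl3 shared the match GGGAATTTCC, which began 71, 97 and 73 bases before the start, and in each of them a second match on the other strand overlapped it from the next base. Cxcl10 had a match 159 and another 104 bases before the start. The AP-1 motif TGANTCA, which reads the same on both strands, was in 3 of 22 member promoters (Ccl9, Cxcl9 and Cxcl10) against 7.81% of all promoters, and the interferon-response-like motif (GAAA, any 2 bases, GAAA, or TTTC, any 2 bases, TTTC on the other strand) in 2 of 22 (Cxcl10 and Cxcl14) against 3.44%. The motif TATAAA, or TTTATA on the other strand, was in 11 of 22 against 13.6%. These matches are descriptions of letters and not evidence of binding.

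Between 10454 and 13134 gene models reached 1 FPKM in a library, and between 3 and 19 members did. The deposited values do not state read depth, so no counting interval could be given. Summed cardiomyocyte markers were 14268 to 16902 FPKM in isolated P0 cells, 5214 to 13549 FPKM in isolated cells 7 days after resection and 6679 to 8531 FPKM 7 days after sham. The isolated cells were not free of other cells. Endothelial markers summed to 18.6 to 455 FPKM in isolated cells 7 days after resection and 473 to 547 FPKM 7 days after sham. In ventricle 7 days after surgery they summed to 320 to 340 FPKM after resection and 277 to 329 FPKM after sham. In unoperated P0 ventricle they summed to 249 to 306 FPKM. In explants the cardiomyocyte marker sum was 19998 to 23992 FPKM at 0 h and 3606 to 3841 FPKM at 72 h, and Myh6, the adult myosin heavy chain, was listed at 0 in 1 of the 0 h libraries.

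**Figure D1:**
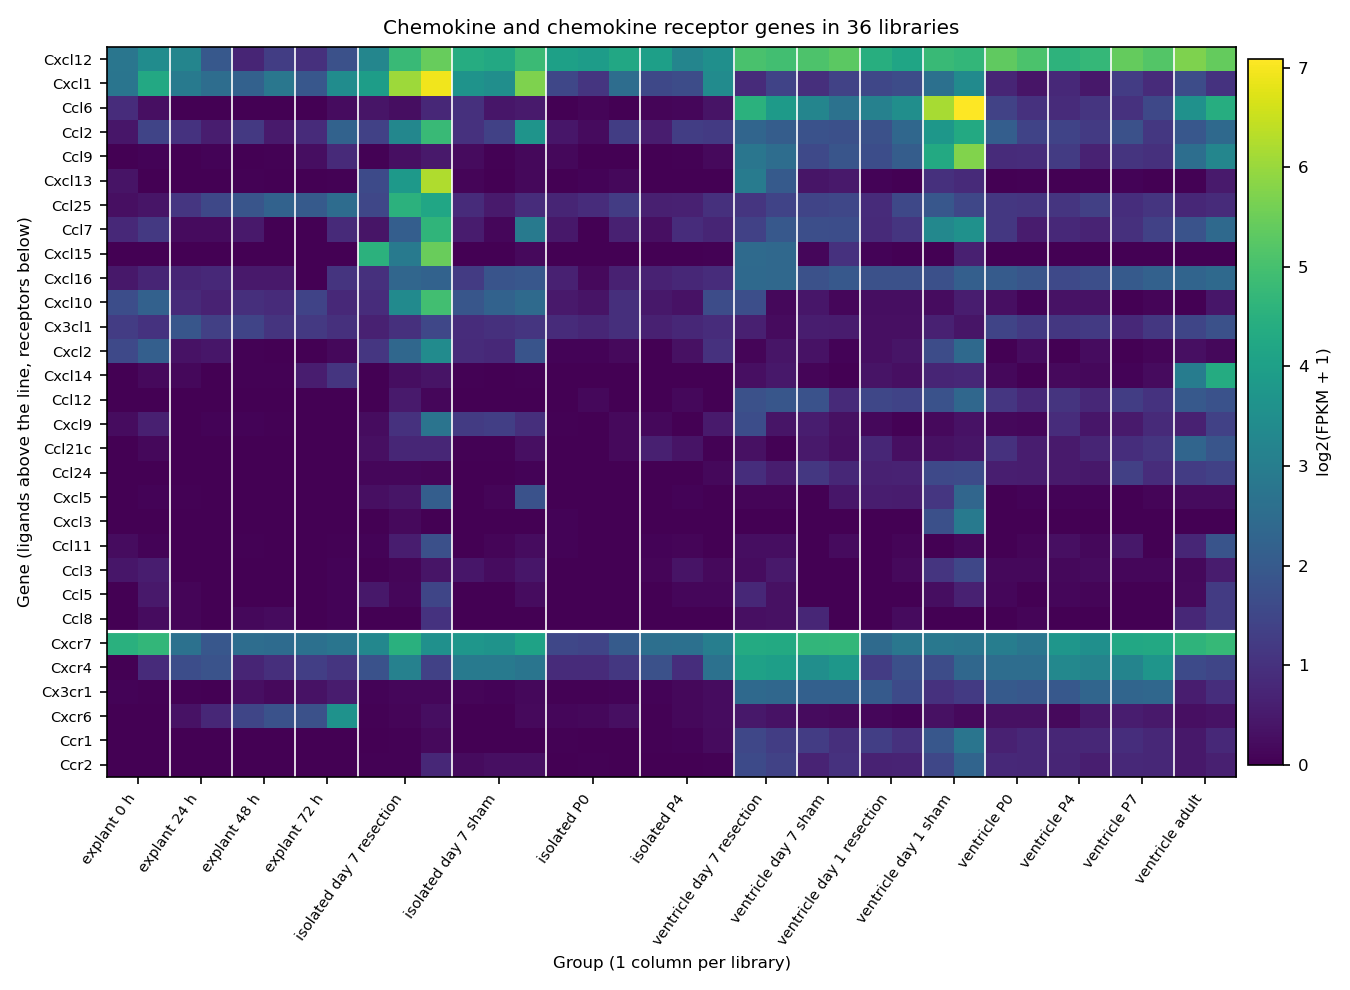
Levels of the 30 described members (rows, log2(FPKM + 1) as colour) in the 36 libraries (columns, grouped by preparation and condition), with ligands above the white line and receptors below. Cxcl12 and Cxcr7 are bright in most columns, Ccl6 peaks in ventricle 1 day after sham, and Cxcl13 and Cxcl15 stand out in isolated cells 7 days after resection.

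The 6 members with the highest mean were Cxcl12, Cxcr7, Cxcl1, Ccl6, Cxcr4 and Ccl2. Cxcl12 ranged over 0.652 to 51.2 FPKM with a median of 20.3 FPKM, and Cxcr7 was at 1.73 FPKM or above in all 36 libraries, with a highest value of 25.7 FPKM. Cxcl1 ranged over 0.320 to 120 FPKM, Ccl6, a CC ligand made by myeloid cells in mice, over 0 to 135 FPKM, Cxcr4 over 0 to 15.6 FPKM and Ccl2 over 0.149 to 26.6 FPKM. The highest values of the remaining ligands were 75.1 FPKM for Cxcl13, 52.7 for Ccl9, 43.5 for Cxcl15, 29.9 for Cxcl10, 23.9 for Ccl7, 22.5 for Ccl25 and 19.3 for Cxcl14. The others stayed low. Cxcl2 reached 9.78 FPKM, Cxcl3 6.46, Cxcl9 5.55, Cxcl16 4.37, Ccl12 4.21, Cxcl5 4.03, Ccl21c 3.92, Cx3cl1 2.75, Ccl11 2.61, Ccl24 2.07, Ccl3 1.83, Ccl5 1.80 and Ccl8 1.36. Among receptors, Cxcr6 reached 11.3 FPKM, Ccr1 5.81, Cx3cr1 4.40 and Ccr2 3.89.

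Members just inside the threshold, at 1 FPKM in exactly 2 libraries, were Cxcl3, Ccl11, Ccl3, Ccl5 and Ccl8. Just outside were Cxcr2, the receptor of the neutrophil-attracting ligands, at 1.59 FPKM in 1 library of ventricle after sham at day 1, and Ccr9, the receptor of Ccl25, at 1.02 FPKM in 1 library of isolated cells after resection at day 7. The other undescribed symbols were Cxcr1, Cxcr3, Cxcr5, Ccr3, Ccr4, Ccr6, Ccr7, Ccr8, Ccr10, Ccr1l1, Ccl1, Ccl4, Ccl17, Ccl19, Ccl20, Ccl21a, Ccl21b, Ccl22, Ccl26, Ccl27b, Ccl28, Cxcl11 and Cxcl17, of which Ccl21b, Ccl26 and Ccl28 were listed at 0 in every library. Ccl21c has near-identical copies, and 2 overlapping gene models carried the symbol Ccl25, so the values of both are uncertain. The described members lay mostly in clusters, 10 on chromosome 11, 9 on chromosome 5 and 4 on chromosome 9.

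Resection was first compared with sham surgery in ventricle after 1 day. Members were lower after resection: inflammatory ligands led by Ccl6, Ccl9, Ccl7 and Ccl2, the neutrophil-attracting ligands Cxcl1, Cxcl2, Cxcl3 and Cxcl5, and the receptors Ccr1 and Ccr2. The fractalkine receptor Cx3cr1 alone was called higher. No gene marks resection, so the surgical labels could not be checked against the data, and the direction of each value at day 1, and of each difference between the days, rests on them as given. The test was limma on log2(FPKM + 1) with Benjamini-Hochberg adjustment over all 14306 tested gene models, and a fold on this scale understates the change of low genes. Of the 30 members, 25 passed the filter of 1 FPKM in 2 ventricle libraries, and 14 were called, against 10.3% of all tested gene models. The 13 called lower were 11 ligands and 2 receptors, with 8.88% of gene models lower, and 1.38% were higher. The median difference was -0.89 over the members tested and -0.16 over all gene models, and -0.01 over all gene models after median-of-ratios scaling.

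Ccl6 was at 7.70 and 10.4 FPKM after resection, against 71.0 and 135 FPKM after sham (log2 difference -3.31 ± 0.35 SE, adjusted p = 0.000317). Ccl9, a related CC ligand of Ccr1, was at 2.21 and 3.24 FPKM after resection, against 18.7 and 52.7 FPKM after sham (-3.14 ± 0.37, adjusted p = 0.000713). The groups did not overlap for either gene, and sham replicate 2 was the higher sham library in both. Here and below, remarks on overlap describe the printed values, and the share of all gene models whose groups did not overlap was not counted. In unoperated P0 ventricle Ccl6 was at 1.62 and 1.01 FPKM and Ccl9 at 0.822 and 0.863 FPKM, so both surgical groups lay above those unoperated hearts.

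The monocyte ligands were lower in both resected libraries. Ccl7 was at 0.788 and 1.14 FPKM after resection, against 8.95 and 10.9 FPKM after sham (-2.48 ± 0.26, adjusted p = 0.000269). Ccl2 was at 2.36 and 4.16 FPKM after resection, against 12.4 and 18.9 FPKM after sham (-1.97 ± 0.30, adjusted p = 0.00289). Their receptor Ccr2 was at 0.589 and 0.626 FPKM after resection, against 1.83 and 3.89 FPKM after sham (-1.21 ± 0.21, adjusted p = 0.00625). Again no resected library reached the lower sham library.

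The receptor Ccr1 and its ligand Ccl3 were lower as well. Ccr1 was at 1.5 and 1.01 FPKM after resection, against 2.80 and 5.81 FPKM after sham (-1.18, adjusted p = 0.0128). Ccl3, which attracts monocytes and macrophages, was at 0 and 0.135 FPKM after resection, against 1.12 and 1.83 FPKM after sham (-1.20, adjusted p = 0.00315). Sham libraries were above resected ones throughout, but Ccl3 reached 1 FPKM in ventricle only after sham at day 1, which bears on this. Cx3cr1, a receptor of patrolling monocytes and resident macrophages, went the other way, at 3.0 and 2.01 FPKM after resection and 1.00 and 1.28 FPKM after sham (0.70 ± 0.18, adjusted p = 0.0288).

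The CXC ligands of one gene cluster were lower as well. Cxcl1 was at 1.84 and 2.11 FPKM after resection, against 5.08 and 9.52 FPKM after sham (-1.43 ± 0.30, adjusted p = 0.0131). Cxcl2 was at 0.215 and 0.330 FPKM after resection, against 2.14 and 4.35 FPKM after sham (-1.69, adjusted p = 0.00157). Cxcl3 was listed at 0 in both resected libraries, against 2.31 and 6.46 FPKM after sham, so no fold is given (adjusted p = 0.000547). These are the ligands whose promoters share the κB-like match printed above. Cxcl5 was at 0.469 and 0.453 FPKM after resection, against 1.18 and 4.03 FPKM after sham (-1.18, adjusted p = 0.0241). The groups were separate for all of them, but Cxcl2, Cxcl3 and Cxcl5 reached 1 FPKM in ventricle only after sham at day 1, which bears on this. Cxcl3 did not exceed 0.131 FPKM in any of the 34 libraries outside the day 1 sham group.

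Of the low members, Ccl24, an eosinophil-attracting ligand, was at 0.571 and 0.594 FPKM after resection, against 1.94 and 2.07 FPKM after sham (-0.92, adjusted p = 0.0102). Cxcl13, which attracts B cells through Cxcr5, was at 0.0456 and 0 FPKM after resection, against 0.988 and 0.802 FPKM after sham (-0.89, adjusted p = 0.0416). The homeostatic genes were not called: Cxcl12 was at 20.6 and 16.8 FPKM after resection and 27.0 and 24.7 FPKM after sham (-0.45, adjusted p = 0.0797). Cxcr7 was at 4.45 and 6.01 FPKM after resection and 6.13 and 5.87 FPKM after sham (adjusted p = 0.41), and Cxcr4 was at 1.40 and 2.29 FPKM after resection and 2.15 and 4.14 FPKM after sham (adjusted p = 0.158).

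**Figure D2:**
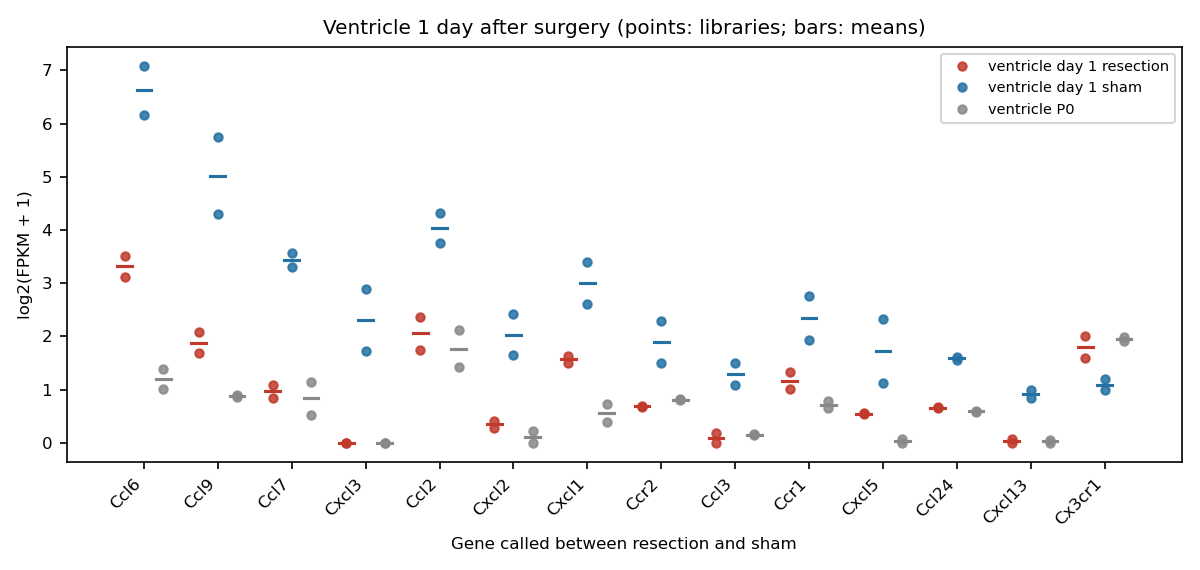
Levels of the 14 members called between resection and sham in ventricle after 1 day, as log2(FPKM + 1), for each library of resection (red), sham (blue) and unoperated P0 ventricle (grey), with short bars at group means. Resection libraries lie below sham libraries for 13 genes and above them for Cx3cr1.

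By position (mm9), the calls were spread over several clusters. At chr5:91188324-91334935 Cxcl1, Cxcl2, Cxcl3 and Cxcl5 were lower and Cxcl15 was not called. At chr11:83339279-83478185 Ccl3, Ccl6 and Ccl9 were lower and Ccl5 was not tested. At chr11:81849072-82119192 Ccl2 and Ccl7 were lower, Ccl12 was not called (-0.63, adjusted p = 0.149), and Ccl8 and Ccl11 were not tested. At chr9:123587556-124028296 Ccr1 and Ccr2 were lower and Cxcr6 was not tested.

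Some genes around the chemokine system were lower too, where 8.88% of all gene models were. Of 10 tested genes for chemokine-inducing cytokines and NF-κB, 5 were lower and none higher, with a list median of -0.62: Nfkbia, the NF-κB inhibitor and target, by -1.39 (adjusted p = 0.00315), the cytokine Il1b by -1.25, Csf1 by -0.75, and the subunits Rela by -0.72 and Nfkb1 by -0.53. Nfkbia was at 15.8 and 19.9 FPKM after resection, against 41.1 and 56.7 FPKM after sham. Of 7 tested atypical receptors and chemokines with other names, 3 were lower (Pf4, Gpr182 and Cmklr1, with Pf4, a platelet and macrophage chemokine, by -1.07). Of 13 signalling genes 3 were lower (Arrb1, Arrb2 and Vav1), and of 9 genes for processing and binding 2 were lower, the gelatinase Mmp9 and the syndecan Sdc4.

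Markers of immune cells moved with these genes, as did some markers of other cells. Lower calls were 2 of 7 tested for smooth muscle and pericytes and 2 of 8 for endothelium. They were 1 of 2 for platelets, 1 of 6 for epicardium and 1 of 5 for lymphatic endothelium. None was called among 6 cardiomyocyte, 7 fibroblast, 5 erythroid and 9 lung epithelial markers. The 11 macrophage markers summed to 42.8 and 47.7 FPKM after resection, against 103 and 149 FPKM after sham, and 7 of 11 were lower. The 8 neutrophil markers summed to 30.3 to 49.2 FPKM after resection, against 89.4 to 161 FPKM after sham, and 3 of 5 tested were lower, with Elane at 0 in both groups. Sham replicate 2 also had the highest lung epithelial marker sum of the day 1 libraries. That sum was 1.61 and 2.06 FPKM after resection and 2.75 and 15.9 FPKM after sham. Erythroid markers summed to 558 and 467 FPKM after resection and 282 and 713 FPKM after sham. The T-cell and B-cell lists had no tested gene. The part of all these cell types in the differences was not tested. In bulk tissue, fewer cells of a type and less RNA per cell cannot be told apart.

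Cxcl2, Cxcl3, Cxcl5 and Ccl3 passed the filter through the day 1 sham libraries alone, so their sign was fixed by the filter. Among the 21 members that passed in ventricle libraries outside the comparison, 9 were lower and 1 higher, while 8.59% and 1.39% of such gene models were. Without sham replicate 2, 5 members were called in place of 14, and without sham replicate 1 or resection replicate 1 the count was 9 each time. In a single fit over all 36 libraries it was also 9. Cxcl1 was lost without sham replicate 2 (adjusted p = 0.118) or resection replicate 1 (adjusted p = 0.0697), and Ccr1 without sham replicate 2 (adjusted p = 0.104). Ccl6, Ccl9, Ccl7, Ccl2 and Ccr2 remained called whichever library was left out, while no member was called higher without sham replicate 1, sham replicate 2 or resection replicate 1.

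At 7 days after surgery the ventricle comparison gave a different picture. Resected ventricles were higher in Cxcl13 and Cxcl15, 2 of 25 tested members, against 0.154% of all gene models called, 0.147% of them higher, and no member was lower, against 0.00699% of gene models. The median difference was 0.29 over the tested members and 0.11 over all gene models (0.00 after median-of-ratios scaling). Cxcl13 was at 6.78 and 3.0 FPKM after resection, against 0.333 and 0.412 FPKM after sham (2.02 ± 0.25, adjusted p = 0.00438). Cxcl15, known in mice as lungkine and made by lung epithelium, was at 4.49 and 4.22 FPKM after resection, against 0.0951 and 1.01 FPKM after sham (1.85 ± 0.25, adjusted p = 0.00932). For both genes the resected libraries lay apart from the sham libraries.

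Lung markers moved with Cxcl15. The 10 lung epithelial markers summed to 234 and 104 FPKM after resection, against 3.86 and 29.8 FPKM after sham, and 5 of 9 tested were higher. Sftpc, the surfactant protein of alveolar cells, was at 164 and 83.2 FPKM after resection, against 1.99 and 23.5 FPKM after sham. Among the sham libraries, replicate 2 had the higher level of both Sftpc and Cxcl15. Macrophage markers summed to 165 and 126 FPKM after resection, against 83.0 and 77.0 FPKM after sham, with 0 of 11 called. Lyz2 made up most of that sum after resection, at 103 and 77.0 FPKM, against 43.4 and 36.2 FPKM after sham. C1qa was at 11.1 and 7.18 FPKM after resection and 3.90 and 6.83 FPKM after sham. Csf1r was at 6.65 and 4.83 FPKM after resection and 3.66 and 5.11 FPKM after sham. Neutrophil markers summed to 38.9 and 34.9 FPKM after resection, against 7.04 and 21.2 FPKM after sham, with 0 of 5 called. The part of these cell types in the Cxcl15 and Cxcl13 differences was not tested.

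Both calls rested on the filter and on few libraries: neither gene passed in libraries outside the comparison, and none of the 22 members that did was called. Without resection replicate 1 or resection replicate 2, and in a single fit over all 36 libraries or with a pseudocount of 0.1, 0 members were called.

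Of the 13 members lower at day 1, Cxcl13 alone was called at day 7. Ccl6 was at 22.1 and 13.7 FPKM after resection and 8.37 and 5.34 FPKM after sham (1.26, adjusted p = 0.213), Ccl9 at 5.94 and 4.81 FPKM after resection and 1.93 and 2.67 FPKM after sham (0.95, adjusted p = 0.378), and Ccr2 at 1.99 and 1.66 FPKM after resection and 0.647 and 1.00 FPKM after sham (0.63, adjusted p = 0.296). The resected libraries were the higher ones here, though short of the threshold. Ccl2 was at 3.97 and 3.22 FPKM after resection and 2.46 and 2.30 FPKM after sham (adjusted p = 0.64), and Ccl7 at 1.58 and 2.85 FPKM after resection and 2.28 and 2.19 FPKM after sham (adjusted p = 0.995). Ccr1 was at 1.87 and 1.42 FPKM after resection and 1.39 and 0.947 FPKM after sham. Cx3cr1 was at 4.40 and 4.17 FPKM after resection and 3.52 and 3.49 FPKM after sham (adjusted p = 0.693).

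The neutrophil-attracting ligands Cxcl1, Cxcl2 and Cxcl3 were at 1.68 FPKM or below in all 4 day 7 ventricle libraries. Cxcl1 was at 0.837 and 1.68 FPKM after resection and 0.928 and 1.62 FPKM after sham, and Cxcl2 at 0.0707 and 0.308 FPKM after resection and 0.259 and 0.0560 FPKM after sham. Cxcl3 was listed at 0 in both groups. The homeostatic genes were not called. Cxcl12 was at 32.3 and 29.6 FPKM after resection and 33.4 and 38.6 FPKM after sham (adjusted p = 0.674), Cxcr7 at 19.2 and 18.9 FPKM after resection and 24.5 and 24.8 FPKM after sham (-0.36, adjusted p = 0.36), and Cxcr4 at 15.6 and 14.6 FPKM after resection and 10.4 and 12.4 FPKM after sham (adjusted p = 0.595).

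The resection effect differed between day 7 and day 1 for 11 of 25 tested members, each with a higher effect at day 7, against 5.93% of all gene models called in either direction and 5.69% higher. The difference was 4.57 ± 0.50 for Ccl6 (adjusted p = 0.000768), with an effect of 1.26 at day 7 and -3.31 at day 1. It was 4.09 ± 0.53 for Ccl9 (adjusted p = 0.00207), with 0.95 at day 7 and -3.14 at day 1. The other 9 were Cxcl13, Ccl7, Ccl2, Cxcl3, Cxcl15, Ccr2, Cxcl2, Ccl3 and Ccr1, 7 ligands and 2 receptors, with differences of 1.47 to 2.91. For some of them the filter bears on the sign: Cxcl2, Cxcl3 and Ccl3 reached 1 FPKM in ventricle only after sham at day 1, Cxcl13 only after resection at day 7, and Cxcl15 only in day 7 libraries. Macrophage markers (6 of 11) and neutrophil markers (3 of 5) were called in the same direction, as were 7 of 9 lung markers. In the single fit over all 36 libraries 6 members were called, and Cxcl13 (adjusted p = 0.127), Ccl7 (0.310), Ccl2 (0.285), Cxcl15 (0.0564) and Cxcl2 (0.169) were not. With a pseudocount of 0.1, Cxcl15 (adjusted p = 0.0658) and Cxcl2 (0.0845) were not called. Without day 1 sham replicate 2 the count was 7.

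**Figure D3:**
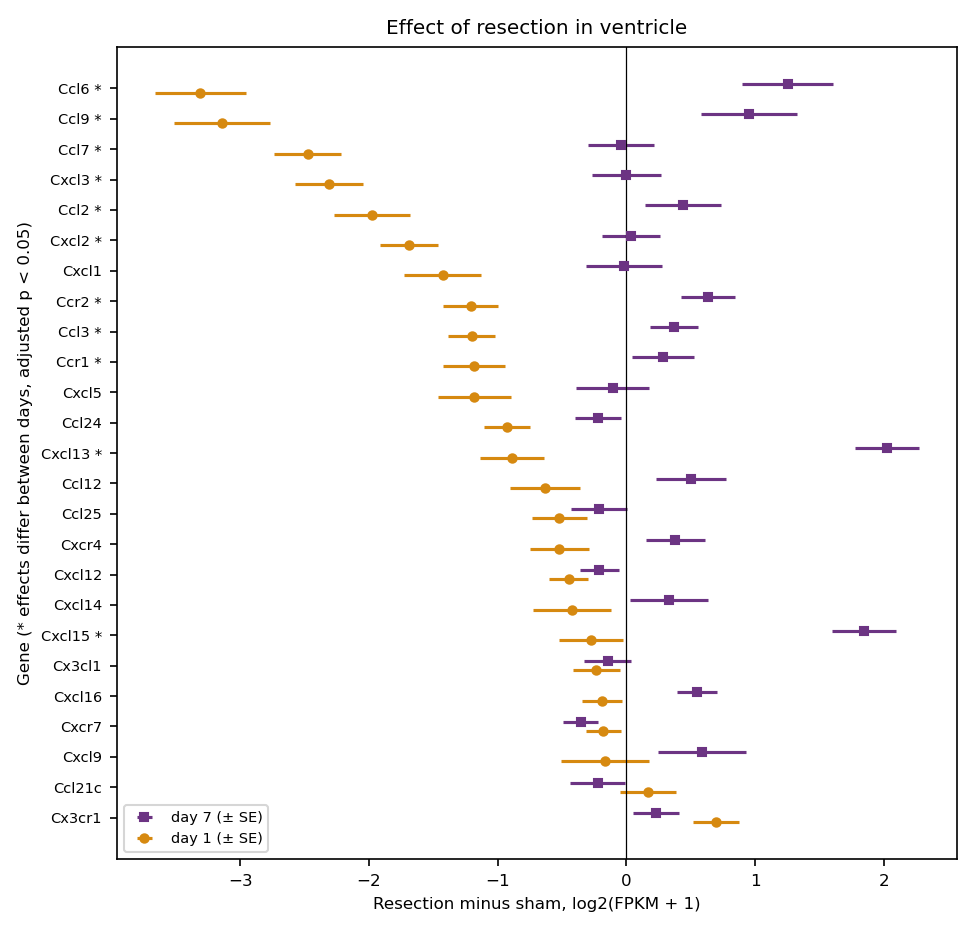
Effect of resection in ventricle (resection minus sham, log2(FPKM + 1), points with SE bars) at day 7 (squares) and day 1 (circles) for the 25 tested members, ordered by the day 1 effect. Stars mark the 11 members whose effects differed between the days. At the top, Ccl6 lies at 1.26 at day 7 and at -3.31 at day 1.

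Isolated cardiomyocytes were compared 7 days after surgery with 3 libraries a group. Cxcl15, Cxcl13 and Ccl25 were higher after resection, 3 of 15 tested members, against 1.08% of all 13143 gene models called, 1.07% higher. The remaining 15 members did not pass the filter in isolated cells. The median difference was 0.89 over the tested members and 0.13 over all gene models (-0.01 after median-of-ratios scaling). Cxcl15 was at 22.4, 6.42 and 43.5 FPKM after resection, against 0, 0 and 0.133 FPKM after sham (4.24 ± 0.44, adjusted p = 0.000637). Cxcl13 was at 2.01, 13.2 and 75.1 FPKM after resection, against 0.0671, 0 and 0.111 FPKM after sham (3.81 ± 0.76, adjusted p = 0.034). Ccl25, a ligand of Ccr9 best known from thymus and gut, was at 1.82, 22.5 and 17.4 FPKM after resection, against 0.815, 0.434 and 0.875 FPKM after sham (2.65 ± 0.57, adjusted p = 0.0449).

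The groups did not overlap for any of the 3 genes, but the share of all gene models without overlap was not counted. Cxcl15 and Cxcl13 reached 1 FPKM in isolated cells only after resection, and Ccl25 only there and in 1 P0 library, which bears on this. Resected replicates differed widely: replicate 3 was highest in Cxcl15 and Cxcl13, and replicate 2 in Ccl25. Replicate 3 also stood apart in erythroid markers. They summed to 5675, 2933 and 40386 FPKM after resection, against 2176, 2360 and 3009 FPKM after sham, with 0 of 5 called. All 10 lung epithelial markers were higher after resection, with sums of 618, 191 and 1203 FPKM, against 2.33, 2.58 and 5.74 FPKM after sham. Sftpc was at 396, 142 and 947 FPKM after resection, against 0.308, 0.394 and 1.88 FPKM after sham. Cxcl15 had the same order over the resected libraries as Sftpc. T-cell and thymocyte markers summed to 0.791, 14.4 and 2.11 FPKM after resection, against 0.549, 0.718 and 1.35 FPKM after sham. The recombinase gene Rag1 was at 0.0319, 3.76 and 0.114 FPKM after resection. It was highest in replicate 2, which had most Ccl25, but low in replicate 3, where Ccl25 was at 17.4 FPKM. Fibroblast markers summed to 498, 1172 and 513 FPKM after resection, against 88.1, 120 and 629 FPKM after sham. Macrophage markers summed to 25.7, 19.5 and 53.0 FPKM after resection, against 7.13, 8.01 and 16.6 FPKM after sham. Of 5 tested, 1 was called higher. Lyz2 made up most of the macrophage sum in resected replicates 1 and 3. It was at 20.3, 7.30 and 38.8 FPKM after resection, against 1.89, 1.22 and 5.70 FPKM after sham. Lyz2 had the same order over the resected libraries as Sftpc. C1qa was at 0.437, 0.539 and 1.28 FPKM after resection and 0.205, 0.425 and 0.644 FPKM after sham. Csf1r was at 0.636, 1.10 and 1.18 FPKM after resection and 0.202, 0.234 and 1.11 FPKM after sham. The part of these cell types in the differences was not tested.

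The inflammatory ligands varied widely within both groups and overlapped between them. Cxcl1 was at 14.4, 65.8 and 120 FPKM after resection and 11.4, 10.3 and 51.9 FPKM after sham (1.36 ± 0.77, adjusted p = 0.498). Ccl2 was at 1.56, 8.73 and 26.6 FPKM after resection and 1.03, 1.56 and 11.7 FPKM after sham (adjusted p = 0.581), and Ccl7 at 0.308, 3.31 and 23.9 FPKM after resection and 0.456, 0.0949 and 6.42 FPKM after sham (adjusted p = 0.609). In all 3, replicate 3 was highest in both groups, and the groups overlapped. Cxcl10, an interferon-inducible ligand of Cxcr3, was at 0.877, 9.51 and 29.9 FPKM after resection and 2.75, 3.70 and 4.43 FPKM after sham (adjusted p = 0.642). Cxcl2 was at 1.16, 4.18 and 9.78 FPKM after resection and 0.824, 0.753 and 2.59 FPKM after sham (1.13, adjusted p = 0.34).

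The homeostatic system showed no call. Cxcl12 was at 8.54, 26.8 and 42.3 FPKM after resection and 20.0, 18.5 and 27.6 FPKM after sham (adjusted p = 0.994), Cxcr7 at 8.64, 21.5 and 10.7 FPKM after resection and 12.3, 11.5 and 15.8 FPKM after sham (adjusted p = 0.959), and Cxcr4 at 2.41, 7.69 and 1.59 FPKM after resection and 6.64, 6.58 and 5.72 FPKM after sham (-0.78, adjusted p = 0.478). The low resected libraries of Cxcr4, replicates 1 and 3, were also those with low endothelial marker sums, 178 and 18.6 FPKM, against 455 FPKM in replicate 2 and 473 to 547 FPKM after sham. The part of endothelial RNA was not tested. Ccl6 was at 0.317, 0.209 and 0.725 FPKM after resection and 0.987, 0.350 and 0.435 FPKM after sham and did not pass the filter. Of 9 tested processing genes, the heparan sulfate proteoglycans Sdc1 (1.39, adjusted p = 0.0148) and Sdc4 (1.64, adjusted p = 0.0327) were higher after resection.

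Cxcl15 and Cxcl13 passed the filter through the resected libraries alone. Ccl25 reached 1 FPKM outside them only in isolated P0 replicate 3, at 1.40 FPKM, so its pass also depended on the resected libraries. None of the 5 members that passed in unoperated isolated cells was called. Without sham replicate 1 or sham replicate 2 only Cxcl15 was called, and Ccl25 was also lost without resection replicate 2 or 3.

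The resection effect at day 7 was then set against the preparation, isolated cells minus ventricle, in a limma fit over all 36 libraries. None of 30 members was called, against 0.0735% of gene models (0.0401% higher, 0.0334% lower), although 8 had an unadjusted p under 0.05. The largest differences were 2.87 ± 0.68 for Ccl25 (adjusted p = 0.0994) and 2.39 ± 0.53 for Cxcl15 (adjusted p = 0.0733). Both were called after median-of-ratios scaling and without isolated sham replicate 3. Cxcl15 was also called without ventricle sham replicate 1 (adjusted p = 0.0468) or isolated resection replicate 2 (adjusted p = 1.85e-06), and Ccl25 without isolated resection replicate 1 (adjusted p = 3.94e-08).

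**Figure D4:**
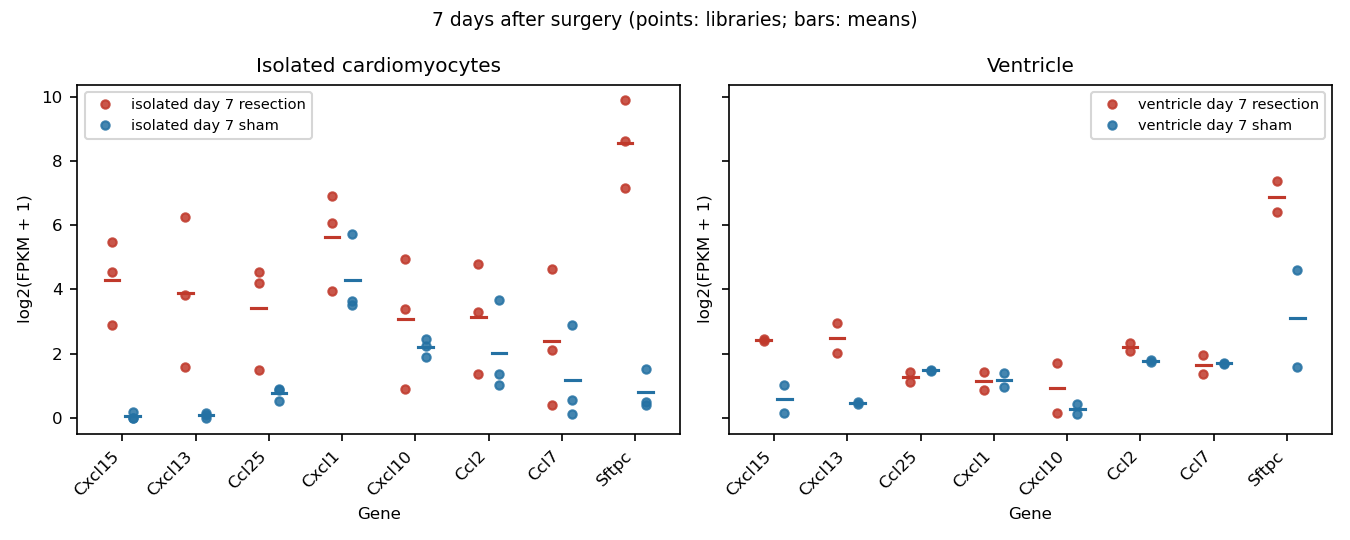
Levels of 7 members and the lung marker Sftpc 7 days after surgery, as log2(FPKM + 1), in isolated cardiomyocytes (left) and ventricle (right), for each library of resection (red) and sham (blue) with bars at group means. Cxcl15, Cxcl13 and Sftpc are higher after resection in both preparations, while Cxcl1, Ccl2 and Ccl7 overlap between groups in isolated cells.

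Unoperated ventricle was followed over postnatal age. Cxcr7 was called higher than at P0 at each later age. It was at 6.94 and 5.94 FPKM at P0, 12.1 and 10.5 FPKM at P4, 18.1 and 18.2 FPKM at P7, and 23.5 and 25.7 FPKM in adults. Against P0 the log2 difference was 0.73 ± 0.13 at P4 (adjusted p = 0.0199), 1.37 at P7 (adjusted p = 5.55e-05) and 1.78 in adults (adjusted p = 4.57e-07). At P4 it was the sole call among 25 tested members, against 1.35% of gene models, 0.580% higher. Cxcl12 was the next by p at P4, at 22.7 and 25.1 FPKM, against 39.7 and 32.5 FPKM at P0 (-0.57, adjusted p = 0.107). The P4 call was lost without any 1 of the 4 libraries (0 called) and in the fit over all 36 libraries (0).

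At P7, 2 of 25 tested members were called, Cxcr7 and Cxcr4, both higher, against 12.6% of gene models, 4.35% higher and 8.21% lower, and the median over all gene models was -0.14 (0.00 after median-of-ratios scaling). Cxcr4 was at 4.84 and 4.75 FPKM at P0, 8.93 and 7.96 FPKM at P4, 8.14 and 12 FPKM at P7 and 2.0 and 1.81 FPKM in adults, so it was highest in the first postnatal week and lowest in adults. Its difference from P0 was 0.91 ± 0.23 at P7 (adjusted p = 0.0219) and -1.0 in adults (adjusted p = 0.00261). The P7 call of Cxcr4 was lost, leaving 1, without P0 replicate 1, P0 replicate 2 or P7 replicate 2.

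In adult ventricle, 11 of 25 tested members were higher than at P0 and 2 were lower. Of all gene models 56.9% were called, 13.4% higher and 43.6% lower, and the median over all gene models was -0.36 (-0.02 after median-of-ratios scaling), against 0.35 over the members. The share of members called was thus near that of all gene models. Cxcl14, a ligand expressed in skin and other epithelia, was at 6.90 and 19.3 FPKM in adults, against 0.12 and 0 FPKM at P0 (3.58 ± 0.30, adjusted p = 1.21e-06), and did not exceed 1.14 FPKM in the 34 other libraries. Ccl6 was at 11 and 20.4 FPKM in adults, against 1.62 and 1.01 FPKM at P0 (2.81, adjusted p = 3e-05). Ccl9 was at 4.85 and 8.51 FPKM in adults, against 0.822 and 0.863 FPKM at P0 (2.02, adjusted p = 0.000585). Adults lay above P0 without overlap in all of these.

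Further adult increases were smaller. Ccl7 was at 2.53 and 4.39 FPKM in adults, against 1.21 and 0.442 FPKM at P0 (1.29, adjusted p = 0.00106), and the lymphatic ligand Ccl21c at 3.92 and 2.66 FPKM in adults, against 1.02 and 0.485 FPKM at P0 (1.29, adjusted p = 0.000254). Ccl12, a monocyte ligand, differed by 0.90, Cxcl9 by 0.85, Cxcl1 by 0.76, Ccl24 by 0.72 and Cxcl16, the ligand of Cxcr6, by 0.39. Cx3cr1 fell with Cxcr4. It was at 2.99 and 2.77 FPKM at P0, 2.84 and 3.95 FPKM at P4, 4.00 and 4.20 FPKM at P7 and 0.478 and 0.912 FPKM in adults (-1.21, adjusted p = 9.98e-05). Ccl2 was at 3.32 and 1.68 FPKM at P0, 1.67 and 1.29 FPKM at P4, 2.36 and 1.2 FPKM at P7 and 2.77 and 4.32 FPKM in adults, and was not called. Cxcl12 was at 41.4 and 35.5 FPKM at P7 and 51.2 and 41.7 FPKM in adults (adjusted p = 0.0643 in adults). Cxcl1 was at 0.669 and 0.320 FPKM at P0, 0.749 and 0.379 FPKM at P4, 1.38 and 0.832 FPKM at P7 and 2.11 and 1.03 FPKM in adults, and Ccl6 was at 0.824 and 1.15 FPKM at P4 and 1.02 and 1.91 FPKM at P7. For both ligands the adult libraries were the highest of the unoperated ventricles, with Cxcl1 overlapping P7. In the single fit over all 36 libraries the adult calls of Ccl7 (adjusted p = 0.193), Cxcr4 (0.0610) and Cxcl9 (0.132) were lost, and Cxcl9 was also lost with no filter (0.114) and without either P0 library.

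Adult hearts also had more macrophage signal, with marker sums of 162 to 211 FPKM in adults, against 36.3 to 46.6 FPKM at P0, and 9 of 11 markers higher, where 13.4% of all gene models were. Its part in the differences was not tested. Of the 7 tested atypical receptors and chemokines with other names, 4 were higher in adults (Cmklr1 by 1.64, Pf4, Ccrl2 and Ccrl1) and Gpr182 was lower (-1.47). Of 9 processing genes 7 were lower, among them the peptidase Dpp4 by -1.04, which inactivates Cxcl12, while 43.6% of all gene models were lower. Without P0 replicate 2 or adult replicate 1, 9 members were called in place of 13, and Ccl12 was not among them. Cxcl14 passed the filter through the adult libraries alone. Among the 22 members that passed in ventricle libraries outside the comparison, 8 were higher and 2 lower, while 12.6% and 44.1% of such gene models were. Cxcl14, Cxcl9 and Ccl21c were not among these members, so the filter bears on their sign.

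Isolated cardiomyocytes at P4 were compared with P0 and gave 0 calls among 15 tested members by limma, with 1 at an unadjusted p under 0.05, against 0.00761% of gene models called. That member was Cxcr7, at 5.0, 5.12 and 7.13 FPKM at P4, against 1.85, 1.73 and 3.12 FPKM at P0 (1.07 ± 0.28, unadjusted p = 0.00239, adjusted p = 1), with no overlap. Cxcr4 was at 2.37, 0.916 and 5.27 FPKM at P4, against 0.820, 0.823 and 1.21 FPKM at P0 (0.82, adjusted p = 1). The ligands overlapped: Cxcl12 was at 15.1, 8.29 and 10.5 FPKM at P4, against 15.2, 14.1 and 18.0 FPKM at P0, and Cxcl1 at 1.90, 2.12 and 9.71 FPKM at P4, against 1.83, 1.14 and 4.82 FPKM at P0. Ccl2 was at 0.476, 1.44 and 1.29 FPKM at P4, against 0.353, 0.149 and 1.42 FPKM at P0, and Ccl6 did not exceed 0.298 FPKM in either group.

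In explanted adult cardiomyocytes Cxcr7 was lower and Ccl25 higher at each time in culture than at 0 h. Only 10 of the 30 members passed the filter in explants. Cxcr7 was at 21.5 and 25.1 FPKM at 0 h, 5.20 and 2.82 FPKM at 24 h, 4.73 and 4.61 FPKM at 48 h and 5.08 and 5.77 FPKM at 72 h. Against 0 h the difference was -2.32 ± 0.27 at 24 h (adjusted p = 0.00657), -2.09 at 48 h and -1.92 at 72 h. Ccl25 was at 0.220 and 0.311 FPKM at 0 h, 1.17 and 1.91 FPKM at 24 h, 2.67 and 3.65 FPKM at 48 h and 3.05 and 4.62 FPKM at 72 h, with differences of 0.99 (adjusted p = 0.0455), 1.71 (adjusted p = 0.00408) and 1.92 (adjusted p = 0.00161). Neither gene overlapped between 0 h and any later time. The Ccl25 call at 24 h was lost without any 1 of the 4 libraries, with no filter (adjusted p = 0.133) and in the single fit (0.162). Markers of smooth muscle and pericytes were lower over the same hours, 2 of 4 tested at each time, and summed to 114 and 74.4 FPKM at 0 h, 10.5 to 11.7 FPKM at 24 h, 4.31 to 5.82 FPKM at 48 h and 8.70 to 12.1 FPKM at 72 h. Endothelial markers were lower for 0 of 8 at 24 h, 3 of 8 at 48 h and 4 of 8 at 72 h. The part of these cells was not tested.

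Cxcl12 was at 5.82 and 9.99 FPKM at 0 h, 8.32 and 2.88 FPKM at 24 h, 0.652 and 1.44 FPKM at 48 h and 0.973 and 2.35 FPKM at 72 h, lower at 48 h (-2.11 ± 0.49, adjusted p = 0.0135) and at 72 h (-1.75, adjusted p = 0.0188). Both calls were lost with no filter (adjusted p = 0.0574 at 48 h and 0.0728 at 72 h), without 0 h replicate 2, and without replicate 1 of the later time. Cxcl2 was at 1.94 and 3.45 FPKM at 0 h and 0 to 0.342 FPKM afterwards, with differences of -1.47, -1.83 and -1.78 at 24 h, 48 h and 72 h. Cxcl10 was at 2.17 and 3.62 FPKM at 0 h, 0.794 and 0.587 FPKM at 24 h, 0.926 and 0.831 FPKM at 48 h and 1.68 and 0.746 FPKM at 72 h (-1.18, -1.03 and -0.82). With no filter, and in the single fit, Cxcl10 was not called at any time, and its 24 h call was lost without any 1 of the 4 libraries. The promoters of Cxcl2 and Cxcl10 are among those printed above. Cxcl1 was at 5.71 and 18.3 FPKM at 0 h, 6.52 and 4.77 FPKM at 24 h, 3.6 and 5.97 FPKM at 48 h and 2.79 and 9.94 FPKM at 72 h, and was not called at any time.

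Another pair of receptors was called higher at some of the times. Cxcr6, the receptor of Cxcl16, was listed at 0 in both 0 h libraries and was at 0.282 and 0.732 FPKM at 24 h, 1.82 and 2.44 FPKM at 48 h and 2.37 and 11.3 FPKM at 72 h. It was called at 48 h (adjusted p = 0.0445) and at 72 h (adjusted p = 0.00547), with no fold given against 0. The 48 h call was lost without any 1 of the 4 libraries, with no filter (adjusted p = 0.143) and after median-of-ratios scaling (0.0832). Cxcr4 was at 0 and 0.837 FPKM at 0 h, 2.21 and 2.48 FPKM at 24 h, 0.674 and 0.949 FPKM at 48 h and 1.48 and 1.12 FPKM at 72 h, called at 24 h alone (1.3 ± 0.32, adjusted p = 0.0326), and its 48 h and 0 h libraries overlapped. That call was lost with a pseudocount of 0.1 (adjusted p = 0.0635), with no filter (0.0923) and without 0 h replicate 1, 24 h replicate 1 or 24 h replicate 2. Ccl2 was at 0.341 and 1.72 FPKM at 0 h, 1.05 and 0.484 FPKM at 24 h, 1.25 and 0.434 FPKM at 48 h and 0.813 and 3.70 FPKM at 72 h, with no call, and Ccl6 did not exceed 0.862 FPKM.

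Of the 10 tested members, 5 were called at 24 h (2 higher, 3 lower), 6 at 48 h (2 higher, 4 lower) and 6 at 72 h (2 higher, 4 lower). Of all 12246 gene models, 17.9% were called at 24 h, 42.2% at 48 h and 55.8% at 72 h, so the members' share at 72 h was near the background. Higher calls were 15.4%, 35.0% and 46.8% of gene models at 24 h, 48 h and 72 h, and lower calls 2.55%, 7.18% and 9.07%. The all-gene median was 0.37, 0.59 and 0.76, and -0.06, 0.02 and 0.06 after median-of-ratios scaling, under which the 24 h calls were 0 higher and 3 lower, and those at 48 h 1 higher and 4 lower. At 24 h under that scaling Ccl25 differed by 0.86 (adjusted p = 0.102) and Cxcr4 by 1.15 (adjusted p = 0.094). Of 6 cardiomyocyte markers, 4 were lower at 48 h and 5 at 72 h. The 11 macrophage markers summed to 5.42 to 5.61 FPKM at 0 h and 84.0 to 137 FPKM at 72 h. Of the 4 tested, Cd68, Csf1r and Lyz2 were higher at 72 h and Ly6c2 was lower. Cd68, a lysosomal protein of macrophages, made up most of the sum, at 127 and 70.5 FPKM, while Emr1 did not exceed 0.0838 FPKM and C1qa 0.874 FPKM at 72 h. Neutrophil markers were at 0 in both 0 h libraries and did not exceed a sum of 0.0555 FPKM at 72 h. The part of these cells was not tested either. Cxcl2 passed the filter through the 0 h libraries alone, and Cxcl10 through both of them and 1 library at 72 h, so the filter bears on their sign. Neither was among the 8 members that passed in explant libraries outside each comparison. Of those 8, 2 were higher at each time, and 1, 2 and 2 were lower at 24 h, 48 h and 72 h. Of such gene models 16.1%, 36.5% and 48.2% were higher, and 1.82%, 6.42% and 8.40% lower. Of 9 tested cytokine and NF-κB genes, 4 were higher at 72 h (Csf1, Nfkb2, Rela and Nfkb1) and 1 was lower (Irf1 by -2.63). At 24 h the count was 1 without 0 h replicate 1, 24 h replicate 1 or 24 h replicate 2 and 2 without 0 h replicate 2, with Cxcr7 called each time, and at 48 h it was 2 without 0 h replicate 2 and 3 without 48 h replicate 1.

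**Figure D5:**
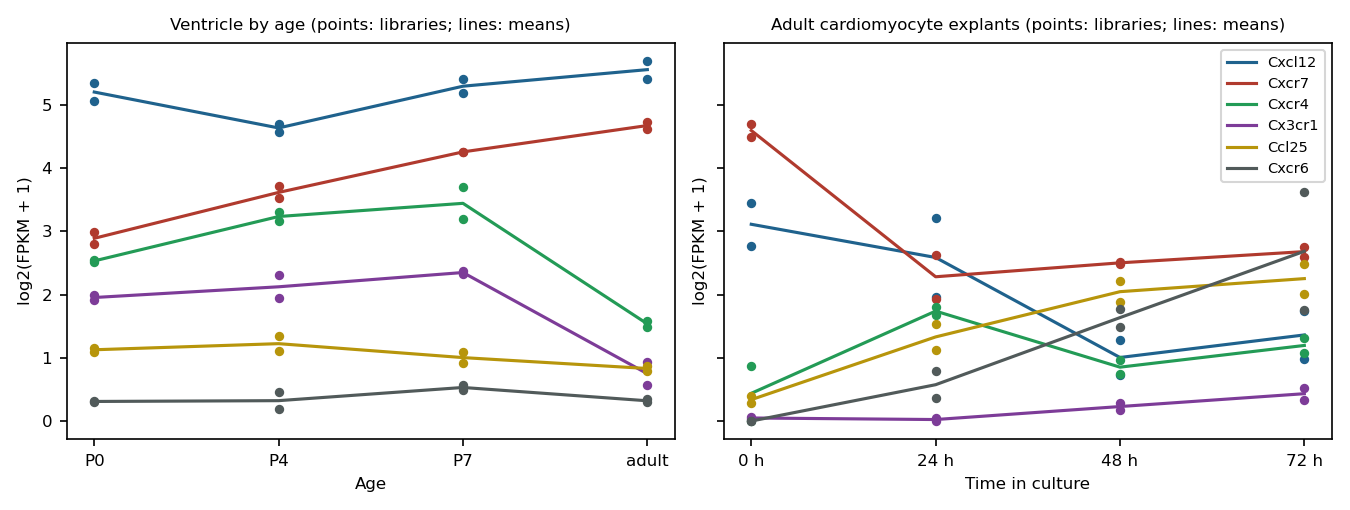
Levels of 6 members as log2(FPKM + 1) by age in unoperated ventricle (left) and by time in culture in adult cardiomyocyte explants (right), with points for libraries and lines through group means. Cxcr7 is higher at each later age in ventricle and is lower at each time after 0 h in explants, where Ccl25 and Cxcr6 increase.

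Preparations were compared at P0 and between adult samples, whose exact age was not given in the labels. Isolated P0 cardiomyocytes were lower than P0 ventricle in 12 of 30 members and higher in none, against 54.5% of gene models called, 53.7% lower and 0.708% higher, with an all-gene median of -0.57 (0.01 after median-of-ratios scaling, under which 5 members were called, all lower, and Cxcr4, Cxcr7, Ccl6, Cxcl12, Ccl9, Ccr2 and Ccl21c were not). Cx3cr1 was at 0.0382, 0.0298 and 0.0423 FPKM in isolated cells, against 2.99 and 2.77 FPKM in ventricle (-1.90 ± 0.14, adjusted p = 5.88e-10). Cxcr4 was at 0.820, 0.823 and 1.21 FPKM in isolated cells, against 4.84 and 4.75 FPKM in ventricle (-1.58, adjusted p = 0.0021). Cxcl16 differed by -1.46, Cxcr7 by -1.23, Ccl6 by -1.16, Cxcl12 by -1.15, Ccl12 by -0.92, Ccl9 by -0.83, Ccr2 by -0.80 and Ccl21c by -0.72. Macrophage markers summed to 2.0 to 3.53 FPKM in isolated cells, against 36.3 to 46.6 FPKM in ventricle, and 10 of 11 were lower. Endothelial markers were lower for 8 of 8 and fibroblast markers for 6 of 7, while 3 of 5 erythroid markers were higher. The erythroid sum was 11777, 12051 and 565 FPKM in the isolated P0 libraries, so replicates 1 and 2 stood apart from replicate 3, against 732 to 857 FPKM in ventricle. The part of these cells was not tested.

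Explants at 0 h were compared with adult ventricle. In explants 14 of 30 members were lower and 2 higher, against 33.5% of gene models called, 31.7% lower and 1.81% higher, and an all-gene median of -0.37 (0.00 after median-of-ratios scaling, under which 3 members were higher and 12 lower). The 2 higher were Cxcl1, at 5.71 and 18.3 FPKM in explants, against 2.11 and 1.03 FPKM in adult ventricle (2.18 ± 0.77, adjusted p = 0.0318), and Cxcl2, at 1.94 and 3.45 FPKM in explants, against 0.228 and 0.110 FPKM in adult ventricle (1.63 ± 0.44, adjusted p = 0.00616). Cxcl14 was at 0 and 0.135 FPKM in explants, against 6.90 and 19.3 FPKM in ventricle (-3.57). It reached 1 FPKM in both adult ventricle libraries and in 1 further library of the 36, so the filter bears on its sign. Ccl6 was at 0.862 and 0.228 FPKM in explants, against 11 and 20.4 FPKM in ventricle (-3.41). Ccl9 differed by -2.87, Cxcl12 by -2.45, Ccl21c by -2.01, Ccl12 by -1.87 and Cxcl16 by -1.75. Cxcr7 did not differ detectably, at 21.5 and 25.1 FPKM in explants and 23.5 and 25.7 FPKM in ventricle (adjusted p = 0.862). Without adult replicate 2, 10 members were called in place of 16, and Cxcl1 was lost without explant replicate 2 or either adult library and Cxcl2 without explant replicate 2. All 11 macrophage markers, all 7 fibroblast markers and 6 of 7 smooth muscle and pericyte markers were lower in explants, and their part was not tested.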

How the data were processed

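The authors sequenced Trizol-extracted heart RNA of 36 libraries on GA-2 or Hi-Seq instruments, using 1 of 2 library protocols, per the labels. Neither is given per sample, so batches could not be examined. The deposited values are FPKM. The authors used TopHat (1.3.2) with Bowtie (0.12.7), and Cuffdiff with Cufflinks (1.2.1), on build mm9, per the submitters' processing notes. The annotation is not given in the sources used here. Depth per library is unknown, and FPKM is not a count, so no count model was used.

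Group means of log2(FPKM + 1) were fitted in R 4.3.3 with limma 3.58.1 and a mean-dependent variance prior, separately for 16 ventricle, 12 isolated and 8 explant libraries, and over all 36 libraries between preparations. Gene models reaching an FPKM of 1 in at least 2 libraries of a fit entered it, and calls needed a two-sided adjusted p (Benjamini-Hochberg, over everything tested) under 0.05. The script was tested on simulated data. Figures were drawn with Matplotlib 3.10.9 (pandas 2.3.3, NumPy 2.4.6, Python 3.11.15).

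The alternatives were median-of-ratios scaling, no filter, a pseudocount of 0.1, a replicate block, 1 fit over all 36 libraries or over the compared groups alone, and leaving out each library. Same-numbered explant libraries deviated together (correlations of 0.39 to 0.62 in 6 of 6 pairs of groups), so the replicate block was read as a pairing there. The main explant fit ignored this pairing, and the explant differences, SE and p-values given above came from that fit. In each comparison the called members were named, up to the 10 with the largest change, with uncalled ones added up to 2 by smallest p, and further members were added for description. Values in every library were planned for the 6 members of highest mean and for those called after resection. For the second set they are printed for the groups compared, with ranges elsewhere. The members and the 17 gene lists (159 entries, 147 in the table) were chosen with earlier results of these data known. A further member and a further list gene are not reported here and enter no count of members or list genes other than those by which the members were chosen.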

Additional observations from a re-analysis of the deposited data

Results flagged for a closer look

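The effect of resection in ventricle differed between day 7 and day 1 by a test of the difference itself, and each difference (day 7 effect minus day 1 effect, log2(FPKM + 1)) was positive. It was 4.57 for Ccl6, 4.09 for Ccl9, 2.91 for Cxcl13, 2.44 for Ccl7, 2.41 for Ccl2, 2.31 for Cxcl3, 2.12 for Cxcl15, 1.84 for Ccr2, 1.73 for Cxcl2, 1.57 for Ccl3 and 1.47 for Ccr1. The filter bears on the sign of Cxcl3, Cxcl2 and Ccl3, which reached 1 FPKM in ventricle only after sham at day 1, of Cxcl13, which did so only after resection at day 7, and of Cxcl15, which did so only in day 7 libraries. Cxcl3 was listed at 0 in the 6 surgical ventricle libraries other than day 1 sham. Of the 10 largest, Ccl6, Ccl9, Ccl7, Ccl2, Cxcl15 and Ccr2 remained called whichever library was left out. In a single fit over all 36 libraries Ccl7 (adjusted p = 0.310), Ccl2 (0.285) and Cxcl15 (0.0564) were not called, nor were Cxcl13 (0.127) and Cxcl2 (0.169).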

How the results depend on the processing

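No member chosen by the naming rule changed direction in its comparison under the alternatives that gave it a value. The values of further members in the text were not recomputed one by one. With a pseudocount of 0.1, 0 members were called in ventricle at day 7. With no filter, 1 was called in isolated cells at day 7, 1 at P7 and 3 at 24 h in explants. With median-of-ratios scaling, 3 were called at 24 h in explants, 2 in the difference of resection effects between preparations and 5 between isolated and ventricle P0. In a single fit over all 36 libraries, 9 were called in ventricle at day 1, 0 at day 7, 0 at P4 and 6 in the difference of ventricle effects between day 7 and day 1, and Ccl7 (adjusted p = 0.0793), Ccl2 (0.159) and Cxcl1 (0.364) were no longer called at day 1. With the replicate block, the counts were 5, 6 and 7 in explants at 24 h, 48 h and 72 h, and of the named genes 1 lost its call, Cxcl9 in adults (adjusted p = 0.0566). In ventricle and isolated cells the numbers were not taken to pair the libraries. Deviations correlated at -0.13 to 0.18 in ventricle, over 0.1 in 2 of 28 pairs. In isolated cells they correlated at -0.58 to 0.42, over 0.1 in 6 of 18 pairs. Leaving out 1 library gave 5 to 14 called members at day 1, 0 to 2 in ventricle at day 7, 1 to 4 in isolated cells at day 7, 0 at P4, 1 to 2 at P7, 9 to 11 in adults, 1 to 2 at 24 h, 2 to 4 at 48 h and 4 to 5 at 72 h in explants. It gave 7 to 12 for the difference between days, 0 to 2 for that between preparations, 9 to 12 for isolated against ventricle P0 and 10 to 14 for explants against adult ventricle. Where 1 library of 2 was left out, the remaining one was assumed to vary like the other groups. Low values limit the rest: most members were under 1 FPKM in most libraries, where no count shows the error.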
